A study of Mus musculus with 4 samples.

Results

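The genes described here encode the mitochondrial ribosomal proteins, taken as the rows of the count tables whose symbol begins with Mrpl or Mrps followed by a number. They are 77 of the 24421 genes in the tables, 48 named for the large subunit (Mrpl) and 29 named for the small subunit (Mrps). The study compared poly(A) RNA of neural stem cells from C57BL/6J mouse cortex at embryonic day 17, grown for 1 day with bFGF and EGF, between cells labelled Prrc2bf/f; Nestin-Cre (knockout, 2 libraries) and cells labelled Prrc2bf/f (control, 2 libraries). All 4 libraries therefore carry the floxed Prrc2b allele, and the knockout libraries differ by label in the Cre transgene, which the Nestin promoter drives in neural progenitors. Whether the 2 libraries of a group stem from different embryos is not stated, so the spread between libraries may be technical. The p-value of a gene here sets its change against this spread, most of it pooled over genes.

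Mitochondria translate the few proteins of their own genome on a ribosome that is distinct from that of the cytosol. Its RNA is encoded in mitochondrial DNA, but its proteins are encoded in the nucleus, made in the cytosol and imported. Some of them descend from bacterial ribosomal proteins and others are found in mitochondria only, and the products of this ribosome are subunits of the respiratory chain and of ATP synthase.

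The libraries held 28205590 and 25936794 gene counts in the knockout and 26491919 and 28263272 in the control. Levels are given in CPM, counts relative to a library total scaled with edgeR's TMM factors, and 3 counts correspond to 0.106 to 0.115 CPM. Prrc2b itself had 575 and 573 CPM in the knockout libraries against 588 and 594 CPM in the control libraries, so its gene total does not check the label. Transcripts of 4 Y-linked genes had 0 counts in the knockout libraries and 6.81 to 24.5 CPM in the control libraries. Xist, the RNA of the inactive X chromosome, was in both groups, at 2210 and 2120 CPM in the knockout libraries and 1670 and 1620 CPM in the control libraries. Genotype, Cre and the sex make-up of the libraries cannot be told apart.

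All 77 members passed the low-count filter, with mean levels of 17.5 to 94.8 CPM. At an adjusted p under 0.05 (edgeR quasi-likelihood test, adjusted over 15012 genes), 15 members rose in the knockout libraries and 4 fell, and 58 did not pass. That is 19.5% of members higher, where 15.1% of all tested genes were called higher, and 5.19% of members lower, where 18.1% of all tested genes were called lower. The changes were small: the median log2 fold change of the members was 0.06, with quartiles of -0.01 and 0.12, and 2 members reached a 1.2-fold change. Over all tested genes the median was 0.005. Both knockout libraries lay above both control libraries for 35 members and below them for 9, where the shares over all tested genes were 32.4% and 32.5%.

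These counts depended on the libraries and on the processing. The members called higher numbered 9 (11.7%, against 11.9% of all genes) without control replicate 1, 9 (11.7%, against 11.3%) without knockout replicate 2 and 5 (6.49%, against 7.03%) with DESeq2. After correction for GC content and transcript length 9 were called higher (11.7%, against 18.8% of all genes), a share below that of all genes. With upper quartile scaling 24 were called higher (31.2%, against 19.6%) and 2 lower (2.6%, against 15.2%). Of the 19 called members, 7 were called whichever library was left out, namely Mrpl21, Mrpl23, Mrpl30, Mrpl34, Mrpl36, Mrps6 and Mrps21.

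**Figure D1:**
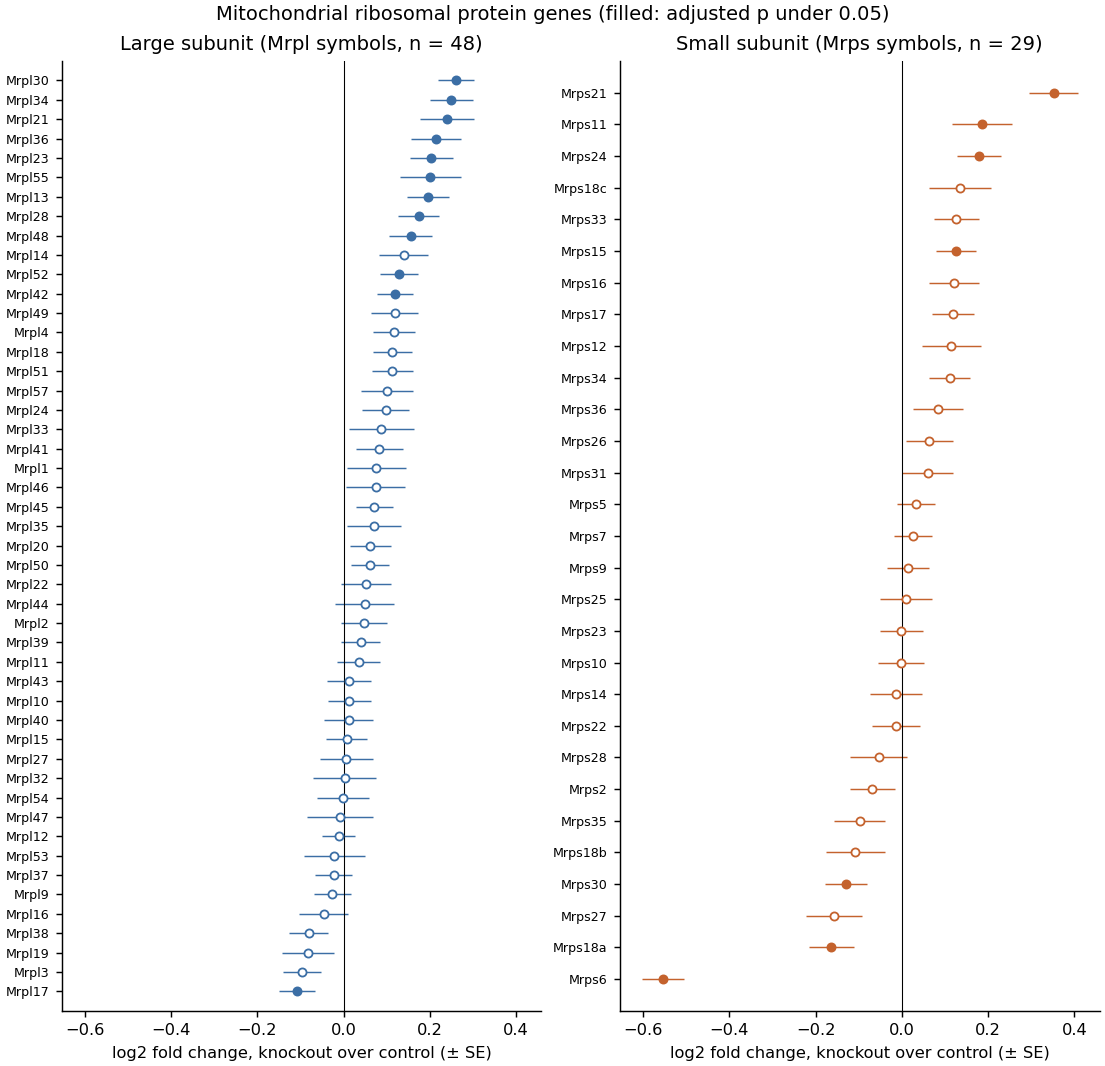
Log2 fold change (knockout over control, ± standard error) of each member, large-subunit symbols on the left and small-subunit symbols on the right, with filled points for an adjusted p under 0.05. Most points lie within 0.2 of 0, and Mrps6 at -0.55 stands apart from the other members.

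Taken by subunit, 11 of the 48 large-subunit members (22.9%) rose and 1 (2.08%) fell, with a median log2 fold change of 0.07. Of the 29 small-subunit members 4 (13.8%) rose and 3 (10.3%) fell, with a median of 0.03. Over all tested genes 15.1% were called higher and 18.1% lower. The summed level of the large-subunit members was 2112 and 2135 CPM in the knockout libraries against 2018 and 2043 CPM in the control libraries, and the groups did not overlap. The summed level of the small-subunit members was 1084 and 1079 CPM in the knockout libraries against 1061 and 1079 CPM in the control libraries, a difference of the group means that was smaller than the difference between the control libraries. The ratio of the small to the large sum, both taken by symbol letter, was 0.513 and 0.506 in the knockout libraries. In the control libraries it was 0.526 and 0.528, so it was lower in both knockout libraries. By letter, the small sum includes Mrps18a and Mrps30, which sit in the large subunit, and Mrps36, which is not ribosomal. No ratio by known position was taken, so whether the difference holds by position was not tested. An exact two-sided permutation test gave p = 0.333 for the ratio and for each sum, the smallest p that 2 against 2 libraries allow. Without Mrps6, left out after its value was seen, the ratio was 0.4964 and 0.489 in the knockout libraries against 0.4999 and 0.5027 in the control libraries, and its log2 difference was -0.03 in place of -0.05.

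The letter of a symbol does not always give the position of the protein. Mrps30 and Mrps18a are known to sit in the large subunit, and Mrps36 is known as a part of the 2-oxoglutarate dehydrogenase complex rather than of the ribosome. With members placed by known position, 11 of 50 large-subunit members rose and 3 fell (median log2 fold change 0.06). Of 26 small-subunit members by position, 4 rose and 1 fell (median 0.03). By position the share called lower was thus higher in the large subunit. By symbol it was higher in the small subunit (3 of 29, against 1 of 48 in the large subunit). For comparison with the counts of this paragraph, 15.1% of all tested genes were called higher and 18.1% lower. Of the 46 proteins whose structural name marks a bacterial counterpart, 12 (26.1%) rose and 2 (4.35%) fell, with a median of 0.07. Of the 30 proteins named as specific to mitochondria, 3 (10.0%) rose and 2 (6.67%) fell, with a median of 0.04. Among them, 0 of the 10 in the small subunit were called in either direction with edgeR, DESeq2 or limma at their main settings (3 had an unadjusted p under 0.05 with edgeR). Under at least 1 of the 15 alternatives 5 of these 10 were called, Mrps33 in 4, Mrps34 in 3, Mrps18b in 2 and Mrps27 and Mrps35 in 1 each. No test was made between these classes, since members are not replicates of a condition.

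RefSeq promoter windows of GRCm38.p6, from 250 bases before to 50 after a transcript start, were available for 68 members in 74 windows and for 32851 windows in all. Exact matches were sought on both strands to 4 short motifs. CCGGAAG, of the ETS type bound by GABP, was in 33.8% of the members' windows and in 8.86% of all windows. AAGATGGC, of the YY1 type, was in 16.2% and 2.75%, and GCGCATGC, of the NRF1 type, was in 10.8% and 2.71%. CCAAT, the CCAAT box, was in 40.5% and 37.4%. The members' windows held a median of 21.5 CpG dinucleotides, against 7.0 in all windows. All windows were not matched to those of the members, so a difference from windows of like CpG content was not tested. Among 14 called-higher members with a window, 5 held the ETS motif, 4 the YY1 motif and 0 the NRF1 motif. The counts were 2, 1 and 1 among the 4 called-lower members and 18, 7 and 7 among 50 members that were not called. A match describes the letters of a window and shows no binding.

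The members with the lowest and the highest log2 fold change were chosen to show their windows. Of the other called members, those whose windows hold at least 2 of the ETS, YY1 and NRF1 motifs were added. Their windows are given with motif matches in capitals. They are Mrps6 at chr16:92058086-92058385 on the plus strand (no match to the 4 motifs), Mrps18a at chr17:46110754-46111053 on the plus strand (CCAAT box, ETS and YY1), Mrpl17 at chr7:105811038-105811337 on the minus strand (ETS and NRF1) and Mrps21 at chr3:95871465-95871764 on the minus strand (ETS on the opposite strand).
Mrps6: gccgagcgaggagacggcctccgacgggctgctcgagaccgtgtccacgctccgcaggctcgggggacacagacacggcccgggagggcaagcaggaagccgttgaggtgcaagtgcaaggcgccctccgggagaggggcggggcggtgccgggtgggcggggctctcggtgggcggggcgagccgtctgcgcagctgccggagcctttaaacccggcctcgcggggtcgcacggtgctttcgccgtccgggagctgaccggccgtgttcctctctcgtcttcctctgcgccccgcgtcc
Mrps18a: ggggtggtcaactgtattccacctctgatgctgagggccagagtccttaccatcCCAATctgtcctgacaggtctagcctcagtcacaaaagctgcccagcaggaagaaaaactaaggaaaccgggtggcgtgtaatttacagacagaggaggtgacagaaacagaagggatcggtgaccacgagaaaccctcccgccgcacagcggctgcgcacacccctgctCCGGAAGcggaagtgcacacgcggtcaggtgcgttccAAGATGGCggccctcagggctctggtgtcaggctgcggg
Mrpl17: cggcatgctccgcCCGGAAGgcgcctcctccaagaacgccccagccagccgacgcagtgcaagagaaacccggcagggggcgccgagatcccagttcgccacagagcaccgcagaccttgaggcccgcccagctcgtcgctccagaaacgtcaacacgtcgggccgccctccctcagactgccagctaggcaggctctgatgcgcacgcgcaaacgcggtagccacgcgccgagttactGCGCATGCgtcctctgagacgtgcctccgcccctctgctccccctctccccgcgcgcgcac
Mrps21: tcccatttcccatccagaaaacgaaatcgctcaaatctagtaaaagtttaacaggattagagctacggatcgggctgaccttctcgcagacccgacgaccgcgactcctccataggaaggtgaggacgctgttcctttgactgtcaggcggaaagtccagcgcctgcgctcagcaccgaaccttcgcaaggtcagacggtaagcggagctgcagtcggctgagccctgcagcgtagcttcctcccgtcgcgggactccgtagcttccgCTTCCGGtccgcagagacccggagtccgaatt
The Mrps6 window overlaps the window of Slc5a3, a gene whose first exon lies within that of Mrps6, at chr16:92058072-92058371 over nearly its whole length, held 39 CpG dinucleotides, and carries none of the 4 motifs. Mrps18a, shown because of its motifs, has 15 CpG dinucleotides and 3 matches. The windows of Mrpl23, Mrpl30 and Mrpl55, which were called higher, also hold none of the 4 motifs.

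Mrps6, the counterpart of the bacterial S6 protein of the small subunit platform, had the lowest log2 fold change of the members. It had 35.6 and 35.4 CPM in the knockout libraries (1007 and 919 counts), against 52.2 and 52.1 CPM in the control libraries (1378 and 1467 counts). Both knockout libraries lay well below both control libraries, and replicates differed little within each group. The log2 fold change was -0.55 ± 0.05 (SE; adjusted p = 8.61e-12, edgeR quasi-likelihood test), and over 15 alternative settings it lay between -0.66 and -0.53 and was called each time.

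The first exon of Mrps6 overlaps that of Slc5a3, the sodium/myo-inositol cotransporter gene, and the promoter window printed for Mrps6 covers the annotated starts of both. On chromosome 16, Mrps6 has 3 exons between 92058270 and 92112227 on the plus strand (GENCODE M21, GRCm38). Slc5a3 lies on the same strand, with its long second exon inside the first intron of Mrps6, and the 159 bases of its first exon, 92058322 to 92058480, also belong to the first exon of Mrps6. Slc5a3 had 147 and 139 CPM in the knockout libraries against 306 and 296 CPM in the control libraries. It was lower in both knockout libraries, by a log2 fold change of -1.07 ± 0.03 (adjusted p = 7.81e-27, edgeR quasi-likelihood test). Mrps6 also shares 305 exon bases (19.9% of its own) on the same strand with the annotated coding gene Gm49711, against 10.4% with Slc5a3. Whether reads of these shared bases contribute to the count of Mrps6 was not tested.

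**Figure D2:**
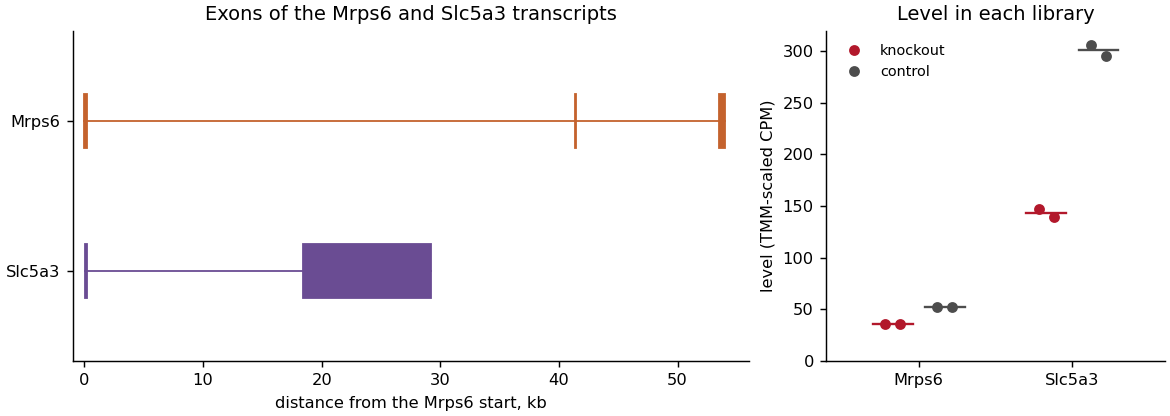
Left, exons of the Mrps6 and Slc5a3 transcripts by distance from the Mrps6 start in kb, whose first exons overlap and end at the same base. Right, level of each gene in each library in CPM, with the mean of each group as a line: Slc5a3 and Mrps6 were both lower in the knockout libraries (147 and 139 CPM, and 35.6 and 35.4 CPM) than in the control libraries (306 and 296 CPM, and 52.2 and 52.1 CPM).

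The other 3 members called lower changed much less. Mrps18a, a protein related to bacterial S18 that sits in the large subunit, had 36.5 and 37.1 CPM in the knockout libraries against 41.3 and 41.1 CPM in the control libraries (log2 fold change -0.16 ± 0.05, adjusted p = 0.013, edgeR). Mrps30, also a large-subunit protein, had 42.6 and 44.4 CPM in the knockout libraries against 47.9 and 47.3 CPM in the control libraries (-0.13 ± 0.05, adjusted p = 0.0372, edgeR). Mrpl17, the counterpart of bacterial L17, had 65.3 and 65.6 CPM in the knockout libraries against 72.4 and 68.8 CPM in the control libraries (-0.11 ± 0.04, adjusted p = 0.0421, edgeR). For each of the 3, both knockout libraries lay below both control libraries, which the rule for naming members, given below, required. With 1 library left out, edgeR's adjusted p of Mrps18a was 0.0523 (control replicate 1 out) or 0.0776 (knockout replicate 1 out), above the threshold. That of Mrps30 was 0.135 and 0.0718 with the first and the other control library out and 0.25 with knockout replicate 1 out, and that of Mrpl17 was 0.331 with control replicate 1 out and 0.128 and 0.104 with knockout replicate 1 or 2 out. With the GC and length correction, the log2 fold change of Mrpl17 was -0.02 (adjusted p = 0.732), and DESeq2 called none of these 3 (adjusted p of 0.163 to 0.27).

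Of the 3 proteins related to bacterial S18, Mrps18a was called and Mrps18b and Mrps18c were not, and whether the 3 differ in response was not tested. Mrps18b, a small-subunit protein, had 21.1 and 20.4 CPM in the knockout libraries against 21.8 and 22.9 CPM in the control libraries (log2 fold change -0.11 ± 0.07, adjusted p = 0.238, edgeR), lower in both knockout libraries but not called. After the correction for GC content and length it was called lower (-0.18, adjusted p = 0.0307, and 0.0392 with the replicate block added). Mrps18c, the copy that takes the place of S18 in the small subunit, had 19.9 and 21.5 CPM in the knockout libraries against 18.9 and 18.8 CPM in the control libraries (0.13 ± 0.07, adjusted p = 0.156, edgeR), higher in both knockout libraries but not called. Mrps36 had 32.8 and 33.0 CPM in the knockout libraries against 29.7 and 32.3 CPM in the control libraries, and its log2 fold change of 0.08 ± 0.06 did not pass (adjusted p = 0.28, edgeR).

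Mrps21, the counterpart of bacterial S21, had the highest log2 fold change. It had 39.1 and 42.0 CPM in the knockout libraries against 30.8 and 32.6 CPM in the control libraries. The groups did not overlap for Mrps21, as the naming rule required, and its log2 fold change was 0.35 ± 0.06 (adjusted p = 3.14e-06, edgeR). Over the 15 alternatives its log2 fold change lay between 0.20 and 0.40 and was called each time. Mrps15, the counterpart of bacterial S15, had 52.2 and 51.7 CPM in the knockout libraries against 47.5 and 47.7 CPM in the control libraries (0.13 ± 0.05, adjusted p = 0.0335, edgeR). DESeq2 did not call Mrps15 (adjusted p = 0.253). Its call was lost whichever library was left out, with adjusted p of 0.08 to 0.142, and after correction for GC content and length its log2 fold change was 0.04 (adjusted p = 0.57).

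**Figure D3:**
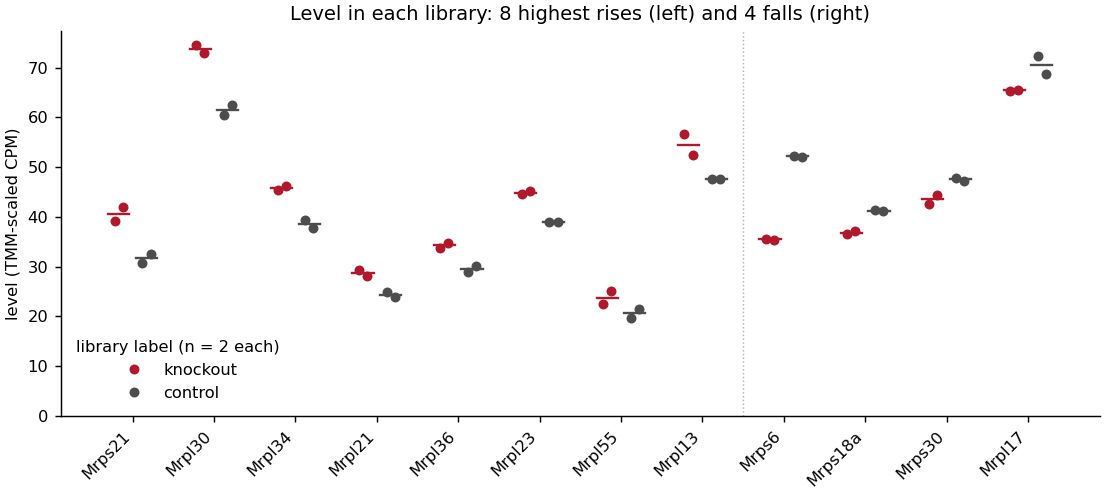
Level in CPM of the 8 members with the highest log2 fold change among those called higher (left of the dotted line) and the 4 called lower (right), 1 point per library and the group mean as a line, knockout left of control. Knockout and control points do not overlap for any of the 12 members shown, which the rule that named them required. The widest gap among the falls is that of Mrps6 (35.6 and 35.4 CPM against 52.2 and 52.1 CPM).

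Among the large-subunit members, Mrpl30, the counterpart of bacterial L30, rose most. It had 74.6 and 73.0 CPM in the knockout libraries against 60.5 and 62.6 CPM in the control libraries (log2 fold change 0.26 ± 0.04, adjusted p = 3.37e-06, edgeR). Mrpl34, the counterpart of L34, had 45.3 and 46.3 CPM in the knockout libraries against 39.3 and 37.8 CPM in the control libraries (0.25 ± 0.05, adjusted p = 0.000143, edgeR). Both knockout libraries lay above both control libraries in each case. Mrpl21, the counterpart of L21, had 29.3 and 28.0 CPM in the knockout libraries against 24.8 and 23.8 CPM in the control libraries (0.24 ± 0.06, adjusted p = 0.00243, edgeR). Mrpl36, the counterpart of the small protein L36, had 33.8 and 34.8 CPM in the knockout libraries against 28.9 and 30.1 CPM in the control libraries (0.21 ± 0.06, adjusted p = 0.00316, edgeR). Mrpl23, whose bacterial counterpart L23 lies beside the exit of the peptide tunnel, had 44.6 and 45.1 CPM in the knockout libraries against 39.0 CPM in each control library (0.20 ± 0.05, adjusted p = 0.00148, edgeR). The groups did not overlap for these members either, as the rule that named the highest rises and the lowest falls required. With the GC and length correction, the log2 fold changes of Mrpl23 and Mrpl36 were 0.10 and 0.11 and no longer called (adjusted p of 0.123 and 0.127), and with DESeq2 Mrpl21 and Mrpl36 were not called (0.0691 and 0.0759). The same correction took Mrpl34 to 0.13 and Mrpl30 to 0.16, both still called (0.041 and 0.00157).

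Mrpl55 had 22.5 and 25.0 CPM in the knockout libraries against 19.7 and 21.5 CPM in the control libraries (log2 fold change 0.20 ± 0.07, adjusted p = 0.0253, edgeR). Mrpl13, the counterpart of L13, had 56.6 and 52.4 CPM in the knockout libraries against 47.6 and 47.7 CPM in the control libraries (0.195 ± 0.048, adjusted p = 0.00139, edgeR). Both genes were higher in both knockout libraries, but with control replicate 1 or knockout replicate 2 out the adjusted p of Mrpl55 was 0.213 or 0.31, and with knockout replicate 1 out that of Mrpl13 was 0.0759. Mrpl55 was also not called after correction for GC content and length (0.11, adjusted p = 0.242) or with DESeq2 (0.217). The remaining called members, Mrpl28, Mrpl48, Mrps11 and Mrps24, were named after their values were seen and had log2 fold changes of 0.17, 0.16, 0.19 and 0.18. DESeq2 called none of them (adjusted p of 0.0727, 0.163, 0.269 and 0.104). With edgeR after correction for GC content and length, Mrps11 and Mrps24 were not called (0.184 and 0.102), while Mrpl28 and Mrpl48 were (0.0344 and 0.00152). Mrpl28 and Mrps24 lost the call with control replicate 1 out (adjusted p of 0.0812 and 0.0787) or knockout replicate 2 out (0.114 and 0.0865). Mrpl48 lost it with control replicate 2 out (0.0661) or knockout replicate 1 out (0.133), and Mrps11 with control replicate 1, knockout replicate 1 or knockout replicate 2 out (0.198, 0.169 or 0.0705).

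Levels per kb of transcript, averaged over the groups, differed widely between members. In the large subunit the highest were those of Mrpl52 (135 CPM per kb), Mrpl42 (102 CPM per kb) and Mrpl12 (72.0 CPM per kb), and the lowest was that of Mrpl47 (5.19 CPM per kb). In the small subunit the highest were those of Mrps21 (74.0 CPM per kb), Mrps34 (53.8 CPM per kb) and Mrps15 (53.1 CPM per kb), and the lowest was that of Mrps25 (4.60 CPM per kb). Lengths are those of 1 annotated transcript per gene. A gene whose cells use a shorter form than annotated therefore has a level per kb that is too low. On the opposite strand, Nr2c2 overlaps 69.8% of the exon bases of Mrps25, and Mapk8ip3 overlaps 63.4% of those of Mrps34. Since the strand setting of the counting is not stated, the levels of Mrps25 and Mrps34 are less certain.

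Of the large-subunit members named by level, Mrpl52 and Mrpl42, proteins found in mitochondrial ribosomes and not in bacteria, rose. Mrpl52 had 58.0 and 59.8 CPM in the knockout libraries against 54.2 and 53.5 CPM in the control libraries (log2 fold change 0.13 ± 0.04, adjusted p = 0.022, edgeR). Mrpl42 had 70.5 and 71.6 CPM in the knockout libraries against 65.0 and 65.8 CPM in the control libraries (0.12 ± 0.04, adjusted p = 0.022, edgeR). The groups did not overlap for either gene, but Mrpl52 lost the call with control replicate 2 or knockout replicate 2 out (adjusted p of 0.102 or 0.153) and Mrpl42 whichever library was left out (0.0506 to 0.114). After correction for GC content and length both values turned slightly negative (-0.01 and -0.02). DESeq2 called neither gene (adjusted p of 0.201 and 0.195).

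Mrpl12, which forms the stalk that recruits translation factors, had 92.8 and 96.1 CPM in the knockout libraries against 92.6 and 97.7 CPM in the control libraries. The groups overlapped, with a log2 fold change of -0.01 ± 0.04 (adjusted p = 0.843, edgeR). Mrps34 had 49.9 and 52.6 CPM in the knockout libraries against 46.8 and 48.1 CPM in the control libraries (0.11 ± 0.05, adjusted p = 0.0705, edgeR), higher in both knockout libraries but not called. It was called with upper quartile scaling (0.0213), with the replicate block (0.0485) and with knockout replicate 1 out (0.0492), and after correction for GC content and length it was at 0.04 (0.51). Mrpl47 had 17.2 and 17.7 CPM in the knockout libraries against 16.8 and 18.2 CPM in the control libraries, and Mrps25 had 28.4 and 27.6 CPM in the knockout libraries against 28.9 and 26.8 CPM in the control libraries. In both the knockout values lay between the control values.

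Of the 15 members that rose, 10 had short transcripts. Of the 25 members with a transcript under 1000 bp, 10 were called higher and 2 lower, with a median log2 fold change of 0.12. Of the 28 members of 1000 to 2000 bp, 4 were called higher and 0 lower (median 0.02), and of the 24 members over 2000 bp, 1 was called higher and 2 lower (median 0.03). Over all tested genes the share called higher was also lower in each longer class, and the share called lower was higher. Among 969 genes under 1000 bp, 33.3% were called higher and 5.47% lower (median 0.14), against 19.2% and 10.7% of 3004 genes of 1000 to 2000 bp (median 0.05) and 12.4% and 21.3% of 10944 longer genes (median -0.02). The members' median length was 1288 bp, against 3027 bp for all tested genes.

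Spearman's rho of log2 fold change with length was -0.35 across the 77 members, -0.41 across the large-subunit and -0.22 across the small-subunit members, and -0.22 across 14917 tested genes with an annotated length. Genes are not independent replicates, and each value comes from the same 4 libraries. After a correction of each library for GC content and length, rho was 0.22 across the members and 0.01 across all genes. The members' median log2 fold change was then 0.007, with 9 members called higher (11.7%, against 18.8% of all genes) and 5 lower (6.49%, against 14.5%), and 10 of the 19 called members were still called in the same direction. Mrps6 (-0.66), Mrps21 (0.20) and Mrpl30 (0.16) were among these 10.

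**Figure D4:**
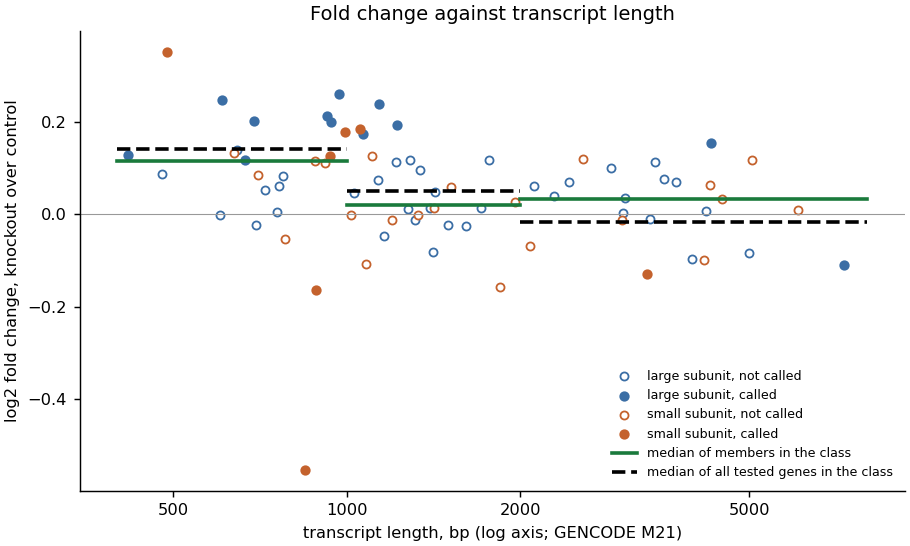
Log2 fold change (knockout over control) of each member against transcript length in bp on a log axis, filled where the adjusted p was under 0.05, with the medians of members (green) and of all tested genes (dashed) in 3 length classes. Under 1000 bp the median was 0.12 for the members and 0.14 for all genes, and for longer transcripts the members' medians were 0.02 and 0.03.

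Many members lie close to another gene. GENCODE M21 places them on 17 chromosomes, none on X or Y, and the exons of 32 of the 77 overlap an exon of another gene, in 8 cases on the same strand. Without these 32, named after the data were seen, 9 of 45 members rose and 2 fell, and the median log2 fold change stayed at 0.06. In the same fit 15.1% of all tested genes were called higher and 18.1% lower. Mrps34 shares 763 exon bases on the same strand with Nme3, a nucleoside diphosphate kinase gene that rose (log2 fold change 0.33, adjusted p = 0.00194, edgeR). Mrpl53 shares 88.0% of its exon bases with the annotated gene Gm42688. Named pseudogenes exist for 3 members, Mrpl23, Mrpl48 and Mrps36, so their counts are less certain where the counting could split reads between copies.

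A coding neighbour on the opposite strand that starts within 1000 bp, head to head, was found for 23 members (29.9%), against 11.1% of 14161 tested coding genes. Of these 23 neighbours 5 rose and 0 fell, with a median log2 fold change of 0.05. Over all tested genes 15.1% were called higher and 18.1% lower. The 5 neighbours that rose were Fau (0.36), Zfp189 (0.38), Sars2 (0.24), Ndufs6 (0.14) and Ncapd2 (0.10). Ndufs6, a subunit of respiratory complex I, is the partner of Mrpl36 and the 1 case in which both genes of a pair were called. Sars2, the mitochondrial seryl-tRNA synthetase, is the partner of Mrps12, which had a log2 fold change of 0.12 and was not called.

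The rest of the mitochondrial translation system was described from lists chosen by function. The shares over all tested genes, to be set beside the counts of each list, were 15.1% higher and 18.1% lower. With DESeq2 they were 7.03% and 10.9%. Of 6 mitoribosomal proteins under other names, 4 rose and 1 fell (1 and 0 with DESeq2), with a median log2 fold change of 0.17. Dap3, a GTP-binding protein of the small subunit, had 103 and 110 CPM in the knockout libraries against 94.0 and 90.6 CPM in the control libraries (0.20 ± 0.04, adjusted p = 5.36e-05, edgeR). Aurkaip1 (0.18), Ict1 (0.17; a peptidyl-tRNA hydrolase built into the large subunit, also known as Mrpl58) and Chchd1 (0.17) also rose. Ptcd3, a pentatricopeptide repeat protein of the small subunit, had 49.9 and 53.5 CPM in the knockout libraries against 57.6 and 59.1 CPM in the control libraries (-0.18 ± 0.05, adjusted p = 0.00278, edgeR), lower in both knockout libraries.

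Of 24 ribosome assembly and rRNA modification genes, 0 were called in either direction with edgeR, DESeq2 or limma, and 2 had an unadjusted p under 0.05 with edgeR. Their median log2 fold change was 0.02, and the 3 with the smallest p, Mettl15, Ddx28 and Mettl17, had values of -0.20, -0.19 and 0.12. Of 15 translation factors 0 rose and 2 fell, with a median of -0.03. Gfm1, the elongation factor that moves the ribosome along the mRNA, had 61.6 and 66.9 CPM in the knockout libraries against 78.8 and 76.9 CPM in the control libraries (-0.28 ± 0.04, adjusted p = 1.88e-06, edgeR). Lrpprc, which stabilises mitochondrial mRNAs, had 79.2 and 83.0 CPM in the knockout libraries against 92.1 and 88.8 CPM in the control libraries (-0.16 ± 0.04, adjusted p = 0.00143, edgeR). Both were lower in both knockout libraries.

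Of 7 genes of mitochondrial transcription and DNA maintenance, 0 were called with edgeR, DESeq2 or limma, and 2 had an unadjusted p under 0.05 with edgeR (median log2 fold change 0.07). The 3 with the smallest p were the transcription factor gene Tfb2m (0.14), the elongation factor gene Tefm (0.25) and the DNA polymerase gene Polg (-0.05). Of 10 regulators of mitochondrial biogenesis 0 rose and 5 fell (0 and 1 with DESeq2), with a median of -0.10. They were Myc (-0.17), Ppargc1a (-0.15), Pprc1 (-0.14), Yy1 (-0.13) and Gabpa (-0.11), the last being the DNA-binding part of GABP. Nrf1, singled out here for its motif, had 42.0 and 44.1 CPM in the knockout libraries against 44.6 and 42.9 CPM in the control libraries, which overlap (-0.03 ± 0.05, adjusted p = 0.754, edgeR). Genes of the mitochondrial genome itself were not analysed here.

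**Figure D5:**
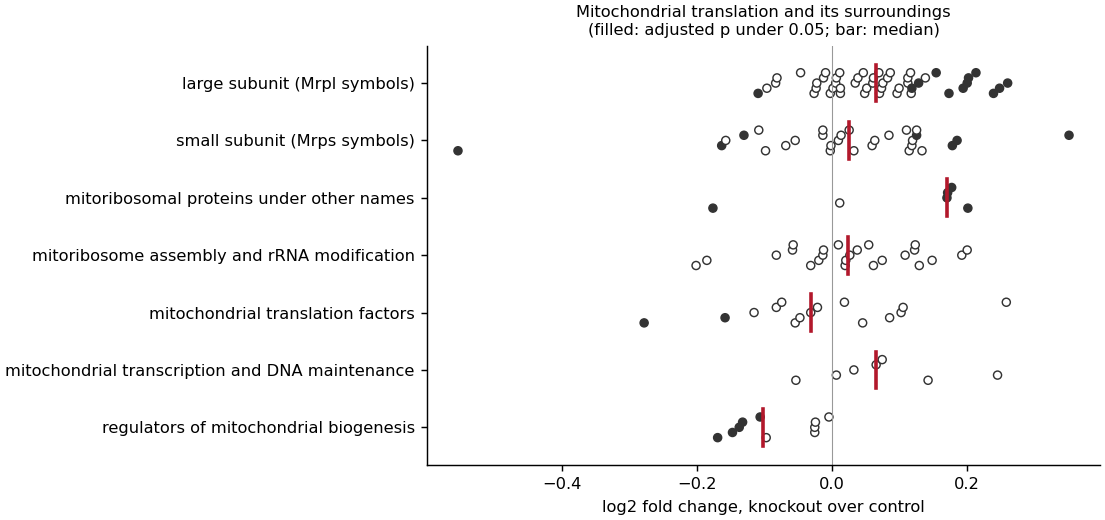
Log2 fold change (knockout over control) of each tested gene in the 2 subunits and in 5 lists of mitochondrial translation and its surroundings, filled where the adjusted p was under 0.05, with the list median as a red bar. The medians run from 0.17 for mitoribosomal proteins under other names to -0.10 for regulators of mitochondrial biogenesis.

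Markers of other cell types moved with the genotype, and in bulk RNA fewer cells of a type and less RNA per cell cannot be told apart. Of 7 neural stem cell and radial glia markers 1 rose (Hes5, log2 fold change 0.89) and 3 fell (Vim -0.31, Slc1a3 -0.36 and Nes -0.22). Sox2 (-0.01), Pax6 (-0.06) and Fabp7 (-0.03) were not called. The summed level of the 7 was 5970 and 5980 CPM in the knockout libraries against 7010 and 6960 CPM in the control libraries. Of 5 neuron markers 4 rose, with a sum of 2360 and 2340 CPM in the knockout libraries against 2030 and 2040 CPM in the control libraries. Of 5 choroid plexus markers 5 rose, with a sum of 1300 and 1320 CPM in the knockout libraries against 183 and 191 CPM in the control libraries, and of 4 astrocyte markers 3 fell, with a sum of 908 and 909 CPM in the knockout libraries against 1610 and 1630 CPM in the control libraries. For each of these 4 cell types the summed levels of the groups did not overlap, and the choroid plexus sum differed most. Of 5 mural cell and fibroblast markers 5 fell, with a sum of 28.3 and 30.7 CPM in the knockout libraries against 139 and 136 CPM in the control libraries. Of 5 oligodendrocyte lineage markers 3 rose and 1 fell, with a sum of 1450 and 1500 CPM in the knockout libraries against 1340 and 1380 CPM in the control libraries. Of 5 tested microglia markers 4 fell, with a sum over the list of 2.23 and 1.5 CPM in the knockout libraries against 4.43 and 5.61 CPM in the control libraries. Of 4 tested endothelium markers 2 fell, with a sum of 9.62 and 10.0 CPM in the knockout libraries against 18.3 and 18.5 CPM in the control libraries. These levels were low in both groups, and the haemoglobin genes Hba-a1, Hbb-bs and Hbb-bt were at 0 in all 4. The part of these differences in the members' values was not tested.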

How the data were processed

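The authors deposited 1 table of raw counts per gene symbol for each library, with no normalization. The submitters' processing notes name mm10 as the build and list, with no role or order, DESeq2 1.26.0, HTSeq 0.12.4 and HISAT2 2.2.1. The annotation and strand setting of the counting are not stated in these sources. Reads of overlapping genes therefore cannot be assigned with certainty. Reads marked as ambiguous made up 2.04% to 2.09% of each library. Lines of unassigned reads (26.1% and 25.8% of entries in the knockout, 25.2% in each control library) were left out.

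The 2 groups were compared in R 4.3.3 with edgeR 4.0.16 (filterByExpr, TMM or trimmed mean of M values, quasi-likelihood F test with legacy off, Benjamini-Hochberg adjustment over 15012 genes, threshold 0.05). The common biological coefficient of variation was 0.0242. The median prior degrees of freedom, the weight given to spread pooled over genes, were 34.3. Alternatives were other scalings, filters and tests (limma 3.58.1, DESeq2 1.42.0), a correction for GC content and length, a replicate block and leaving out each library. The steps were checked on simulated counts. Positions and lengths came from GENCODE M21 on GRCm38, the assembly of mm10, where 98.5% of symbols were found. Replicates differed by more than sampling noise (chi-square over degrees of freedom of 2.2 in the knockout and 1.96 in the control).

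Members and lists were chosen with earlier results of these data known. Members were named by a rule: up to 8 called members with the highest and 8 with the lowest log2 fold change whose groups do not overlap, the 3 of highest and 1 of lowest level per length in each subunit, and Mrps18a, Mrps18b, Mrps18c, Mrps30, Mrps36 and Mrpl12. The precision of a level rests on counts without molecular identifiers, so the 3-count floor covers counting error only.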

Additional observations from a re-analysis of the deposited data

How the results depend on the processing

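Mrps6, Mrps21 and Mrpl30 were called in the same direction under all 15 alternative settings of the fit. Counts of members and the small medians moved more. Upper quartile scaling gave 24 members higher and 2 lower (median 0.087), 0 large-subunit members lower (median 0.093) and 8 small-subunit members higher (median 0.052). Total count scaling gave 2 members lower (2.6%, against 17.3% of all genes), with a median of 0.068. It gave 0 large-subunit members lower (median 0.074) and a small-subunit median of 0.033. Without a low-count filter 2 members were lower (2.6%, against 12.0% of all genes), 0 of them large-subunit, and 2 small-subunit members were higher. DESeq2 called 1055 of all genes higher (7.03%) and 1642 lower (10.9%). Of the members it called 5 higher (6.49%) and 1 lower (1.3%), with large 4 and 0 and small 1 and 1. The cause of these shifts was not tested.

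Correction for GC content and length gave 9 members higher (median 0.007), 7 of them large-subunit (median 0.016) and 2 small-subunit, with the small-subunit median turned to -0.011. The replicate differences of the groups were nearly uncorrelated (r = 0.016 over 15012 genes). Whether equal replicate numbers mark paired libraries is not stated in the labels. With the replicate block 21 members were higher (27.3%, against 16.3% of all genes) and 4 lower (5.19%, against 19.2%), 7 small-subunit members being higher. The replicate block with the GC and length correction gave 8 members higher (10.4%, against 18.1% of all genes), with a median of 0.009. Of these 8, 6 were large-subunit members (subunit median 0.016) and 2 small-subunit members (subunit median -0.009). Leaving out 1 library gave 9 to 14 members higher, 2 to 4 lower and a median of 0.038 to 0.058, with 7 to 10 large-subunit members higher and 0 to 1 lower (median 0.065 to 0.071), and 1 to 4 small-subunit members higher and 2 to 3 lower (median 0.008 to 0.053).

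With subunits by known position, 3 large-subunit and 1 small-subunit members were lower. Without members whose exons overlap another gene, chosen after seeing the data, 9 of 45 members were higher and 2 lower. Among these, 7 large-subunit and 2 small-subunit members were higher and 1 small-subunit member was lower. The shares of all tested genes in the same fit were 15.1% higher and 18.1% lower. Log2 ratios of the summed level were 0.055 (members), 0.072 (large) and 0.023 (small) on plain CPM, against 0.048, 0.065 and 0.016 as reported, and 0.056 (members) and 0.040 (small) without Mrps6, also chosen after seeing the data.

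Single members changed sign near 0. Mrpl12 was at 0.015 with upper quartile scaling and between -0.049 and 0.026 with 1 library left out. Mrpl47 was at 0.018 with upper quartile scaling, between -0.061 and 0.047 with 1 library left out, and at 0.006 and 0.009 with the GC and length correction, alone and with the replicate block. Under these 2 corrections Mrpl42 was at -0.022 and -0.021, Mrpl52 at -0.013 and -0.013, Mrps18c at -0.011 and -0.009 and Mrps36 at -0.054 and -0.052. Mrps25 was between -0.046 and 0.063 with 1 library left out. With 2 libraries per group, a gene's own spread within a group is 1 difference. The standard errors and p-values of edgeR therefore rest mostly on spread pooled over genes. The smallest fold change that these fits can call was not established here.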
